A study of Mus musculus with 5 samples.

Results

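The cytosolic chaperonin, called TRiC or CCT, is built of the products of 8 related genes, Tcp1, Cct2, Cct3, Cct4, Cct5, Cct6a, Cct7 and Cct8. The subunits stand side by side in a pair of stacked rings, and an unfolded protein is closed into the chamber of a ring while ATP is used. Actin and tubulin are its best known clients, and a group of WD-repeat proteins depends on it too, so it serves the cytoskeleton on which the shape of axons, dendrites and spines rests. The members were all features (array spots) that the platform annotation pairs with exactly 1 gene symbol, that symbol being one of the 8 subunits. They came to 14 features for 8 genes, of 32042 features with 1 symbol for 19087 genes in all.

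RNA of the nucleus accumbens, a ventral striatal region that takes part in reward learning, was compared on 5 two-colour arrays. Each array held RNA of 1 cocaine-treated male C57BL6 mouse, given 15 mg/kg on days 2, 3 and 4 of conditioned place preference, against 1 male C57BL6 mouse given saline on the same days. In that procedure a drug is paired with a place and the later preference for the place is scored, and only cocaine-treated mice with a low score entered the study. Cocaine RNA carried the dye Cy5 on 3 arrays (replicates 1 to 3) and Cy3 on 2 (replicates 1 and 2). The design text calls the 5 comparisons independent, but the cocaine RNAs of cocaine-in-Cy5 replicates 1 and 2 have labels that differ only by a suffix and may be from 1 animal. In tissue RNA of this kind, fewer cells of a type and less RNA per cell cannot be told apart.

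The deposited value is the log2 ratio of the 2 channels of a spot. The ratio was taken to have the same treatment on top on all 5 arrays, because 184 of 238 features with large ratios and no gene switched sign with the dye orientation and 0 kept 1 sign. This reading is only likely, and cocaine-in-Cy5 replicates 1 and 3 correlated at -0.32 over all features, so no direction is settled. Nor do the sources used here state which treatment is the numerator. A positive ratio is therefore called the numerator side, and every sign below turns if saline is the numerator. The design text words the comparison as cocaine against saline.

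The spot signals behind the ratios were recovered for the cocaine-in-Cy5 arrays, whose values are exact fractions of scanner counts. Brightness is the recovered log2 signal of the denominator channel, and a feature over 7.5 was called above background. Of all features with 1 gene, 15.6% were above background, and 22.5% of all genes had such a feature. Medians of the 5 arrays ran between -0.69 and 0.60, and at a brightness over 9 between -1.74 and 0.28. Cocaine-in-Cy5 replicate 1 stood apart, with the -1.74 just given, against -0.93 to 0.28 on the other 4 arrays. Markers of medium spiny neurons, the main neurons of the region, were above background for 8 of 8 genes measured, against 0 of 5 for choroid plexus, a neighbouring tissue. Between these lay blood cells (3 of 4), oligodendrocytes (4 of 7), astrocytes (3 of 8), endothelium (2 of 8) and microglia (1 of 7).

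Short promoter stretches of 5 subunits are shown first, because they hold a motif that most of the subunit promoters had and a minority of all promoters had. Other motifs given below, CCAAT and GGGCGG, met this too. The shares beside them are over all genes, whether above background or not. The sequences are those of RefSeq (build GRCm38.p6), read 5′ to 3′ on the strand of the gene, and capitals mark the motif CCGGAA, the core letters bound by Ets factors, or its reverse complement. Entries were found for 7 of the 8 genes, and the one not matched was Cct4. In the 250 bases before the start site, searched on both strands, CCGGAA was present in 5 of 7 subunit genes, against 13.59% of 27025 genes. For Cct5 the match lay before a start site inside the annotated gene, so a shorter stretch is given.
Tcp1, chr17:12916109-12916168, plus strand: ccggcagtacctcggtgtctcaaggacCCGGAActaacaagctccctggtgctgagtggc
Cct2, chr10:117063853-117063912, minus strand: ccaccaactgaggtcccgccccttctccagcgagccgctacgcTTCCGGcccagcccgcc
Cct5, chr15:31601575-31601604, minus strand: caaggtaacggcCCGGAAcgcgaagccgcg
Cct7, chr6:85451445-85451504, plus strand: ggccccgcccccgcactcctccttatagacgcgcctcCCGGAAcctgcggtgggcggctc
Cct8, chr16:87495874-87495933, minus strand: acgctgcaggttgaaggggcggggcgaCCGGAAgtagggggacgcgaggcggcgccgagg

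The first base of the match lay 193 bases before the start site in Tcp1, 17 in Cct2, 53 in Cct5, 23 in Cct7 and 37 in Cct8. These were the same 5 genes that had a feature above background, as 22.5% of all genes had. A link between motif and brightness was not tested, and Cct4 had no promoter entry, so this is given as a description only. In all, 7 motifs were searched, chosen with the array values known. The GC box GGGCGG was present in 7 of 7 subunit genes, against 35.36% of all genes, and CCAAT in 4 of 7, against 37.49%. The E-box CACGTG and the NRF1 motif were each present in 0 of 7, against 6.86% and 0.88% of all genes. Matches of different motifs overlapped in 0 cases in the subunit promoters.

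Pairs of the heat shock unit, to which heat shock factor 1 binds when unfolded proteins build up, were searched in both orientations, since the chaperonin folds proteins. GAANNTTC was present in 1 of 7 subunit genes, Cct2, 42 bases before a start site inside the annotated gene, against 7.73% of all genes. TTCNNGAA was present in 1 of 7, Cct5, 34 bases before its outer start site, against 8.11%. The capitals mark these matches.
Cct2, chr10:117063399-117063428, minus strand: ccccaagtgaaGAAGTTTCtagcaggacct
Cct5, chr15:31601847-31601906, minus strand: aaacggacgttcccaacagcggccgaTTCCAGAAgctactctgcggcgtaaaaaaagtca

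Between cocaine-treated and saline-treated mice, none of the 14 chaperonin features passed the adjusted threshold of 0.05 (limma with a dye term, 0.0% of 43790 features called). At an unadjusted p under 0.05, 0 of 14 were called as well, against 2.28% of all features. Tcp1, Cct2, Cct5, Cct7 and Cct8 each had 1 feature above background, and Cct3, Cct4 and Cct6a had none. On the deposited scale the 5 features above background lay on the denominator side by 0.18 to 0.70 (log2), as did 98.6% of all gene features above background. Brightness was recovered from the denominator channel alone, so the choice of features above background may itself favour this side, which was not tested. Once the dependence of the ratio on brightness had been removed, the 5 chaperonin features lay between -0.07 and 0.24.

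Cct5, the epsilon subunit, in which a human mutation causes a sensory neuropathy, had log2 ratios of -1.50, 0.07 and 0.44 with cocaine in Cy5 and -1.53 and -0.59 with cocaine in Cy3. Its fitted mean was -0.70 ± 0.35 (SE, 5 arrays, limma adjusted p = 0.731), and without a dye term it was -0.62. The arrays thus fell on both sides of 0, with cocaine-in-Cy5 replicate 1 and cocaine-in-Cy3 replicate 1 lowest.

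Cct2, the beta subunit, had -2.49, -0.20 and 0.03 with cocaine in Cy5 and -0.53 and 0.18 with cocaine in Cy3, with a mean of -0.53 ± 0.44 (SE, limma adjusted p = 0.731). Tcp1, the alpha subunit that gave the complex its older name, had -2.35, -0.12 and -0.01 with cocaine in Cy5 and -0.01 and 0.23 with cocaine in Cy3, with a mean of -0.36 ± 0.41 (SE, limma adjusted p = 0.776). For both genes cocaine-in-Cy5 replicate 1 lay far below the other arrays.

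Cct7, the eta subunit, had -2.33, -0.33 and 0.06 with cocaine in Cy5 and -0.31 and 0.34 with cocaine in Cy3, with a mean of -0.43 ± 0.41 (SE, limma adjusted p = 0.743). Cct8, the theta subunit, had -1.67, -0.29 and -0.13 with cocaine in Cy5 and 0.06 and 0.61 with cocaine in Cy3, with a mean of -0.18 ± 0.27 (SE, limma adjusted p = 0.831). Without cocaine-in-Cy5 replicate 1 the mean was -0.06 for Cct7, -0.40 for Cct5 and 0.06 for Cct8, whose sign turned. Cct8 was the one chaperonin feature above background whose sign followed the dye orientation on all 5 arrays.

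**Figure D1:**
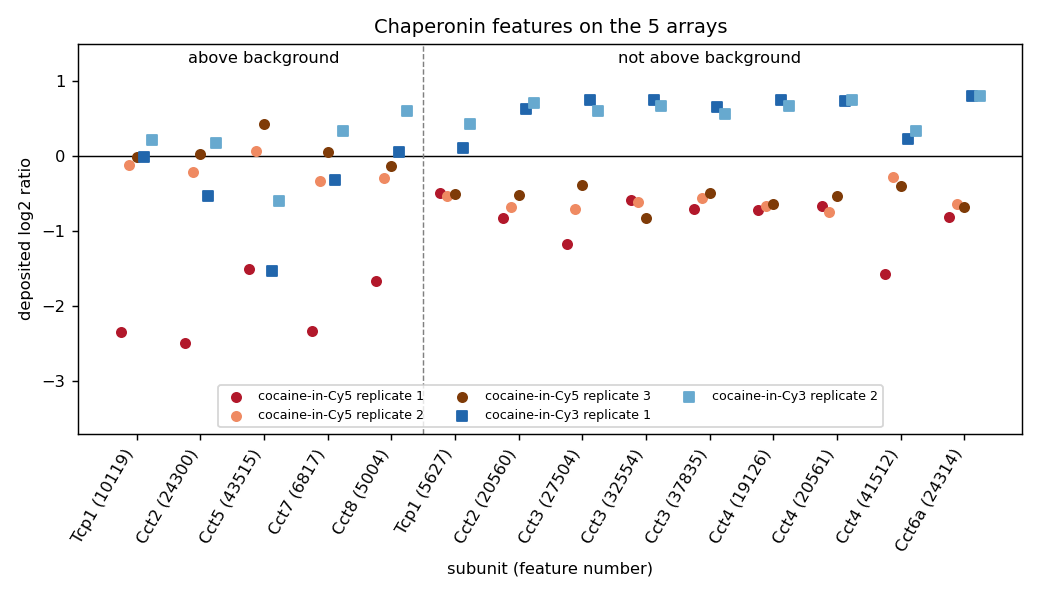
Deposited log2 ratios (vertical axis) of the 14 chaperonin features (horizontal axis) on the 5 arrays, circles for cocaine in Cy5 and squares for cocaine in Cy3. Each of the 9 features not above background was negative on every circle and positive on every square, and cocaine-in-Cy5 replicate 1 was the lowest array for Tcp1, Cct2, Cct7 and Cct8 above background.

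The other 9 features were not above background, so their ratios are given as those of background spots. They comprised all 3 features of Cct3 (gamma), all 3 of Cct4 (delta), the 1 of Cct6a (zeta) and second features of Tcp1 and Cct2. Their means ran from -0.23 to 0.05, and all 9 were negative on the 3 cocaine-in-Cy5 arrays and positive on the 2 cocaine-in-Cy3 arrays. With Cct8, that made 10 of 14 chaperonin features with this pattern, against 76.7% of all features with 1 gene. The feature of Cct6a, for example, had a mean of 0.05 ± 0.04 (SE) for the treatment and -0.76 ± 0.04 (SE) for the dye.

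Taken as the treatment effect, which is what the other reading of the sign amounts to, the dye coefficient passed the adjusted threshold for 8 of 14 chaperonin features, against 78.4% of all features. The cocaine-in-Cy5 arrays alone, tested against 0, called 8 of 14, against 76.8% of all features. In both cases the 8 were the dimmest, every one of them not above background, and the one left out among those was feature 41512 of Cct4. Neither count stands out from its background.

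Feature 41512 of Cct4, the subunit that is mutated in a rat with a sensory neuropathy, lay exactly at the brightness threshold of 7.5. Its ratios were -1.57, -0.28 and -0.40 with cocaine in Cy5 and 0.24 and 0.34 with cocaine in Cy3. With a threshold of 7 and the trend removed, its mean was -0.03 ± 0.11 (SE).

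Features of 1 gene differed in brightness and in ratio. Tcp1 had means of -0.36 ± 0.41 and -0.11 ± 0.06 (SE) at its features above and not above background, and Cct2 had -0.53 ± 0.44 and 0.00 ± 0.06 (SE). All 5 features above background target a RefSeq transcript. Of the 9 others, 4 target a RefSeq transcript and 5 a cDNA clone.

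The ratios of the cocaine-in-Cy5 arrays were also recovered as counts. Cct2 had 230, 1095 and 1239 counts in the numerator channel of cocaine-in-Cy5 replicates 1, 2 and 3, against 1293, 1260 and 1216 counts in the denominator channel. Cct5 had 903, 2723 and 3223 counts in the numerator channel, against 2556, 2602 and 2377 counts in the denominator channel. The recovery aligns the denominator signals of a spot over the arrays, so these are alike by construction and a low ratio comes out as a low numerator. The counts therefore do not show which channel was low.

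Tcp1 had 67, 295 and 299 counts in the numerator channel, against 340.5, 320 and 300 counts in the denominator channel. Cct7 had 55, 228 and 301 counts, against 276, 286 and 289 counts. Cct8 had 92, 237.5 and 278 counts, against 292, 290.5 and 304 counts. Dim features had a median of 56 numerator counts on replicate 1, beside which Tcp1 and Cct7 stood at 67 and 55 counts under this alignment.

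**Figure D2:**
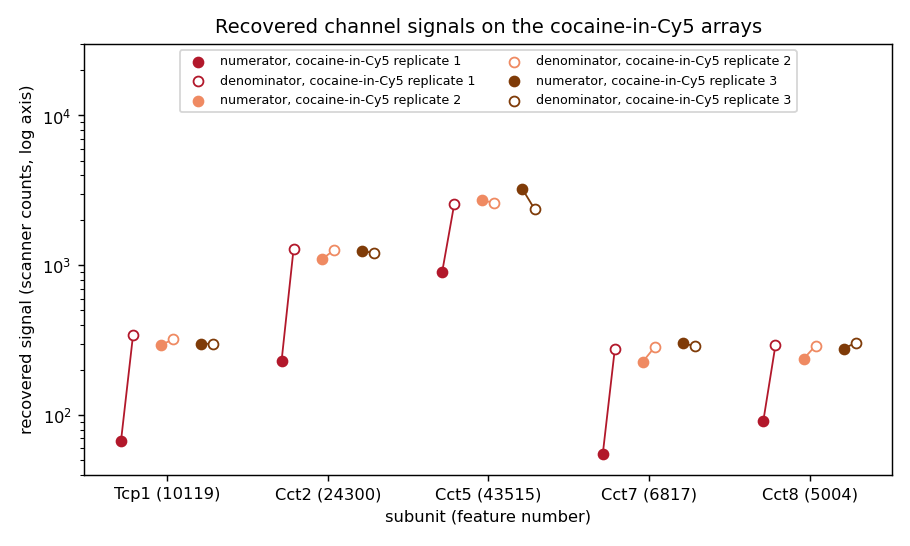
Recovered scanner counts (vertical axis, log scale) of the 5 chaperonin features above background on the 3 cocaine-in-Cy5 arrays, filled points for the numerator channel and open points for the denominator channel. The open points of a feature are alike because the recovery aligns them, so the low filled points of replicate 1, such as 230 counts for Cct2, restate its low ratios.

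The ratios of all features followed brightness differently on each array. In the class with a brightness of 8 to 9, the medians of all features were -1.62, -0.20 and 0.14 with cocaine in Cy5 and -0.61 and -0.10 with cocaine in Cy3. Over a brightness of 9, where Cct2 and Cct5 lay, they were -1.74, -0.12 and 0.28 with cocaine in Cy5 and -0.93 and -0.30 with cocaine in Cy3. The 5 chaperonin features above background, of both classes, had medians of -2.33, -0.20 and 0.03 with cocaine in Cy5 and -0.31 and 0.23 with cocaine in Cy3. Over genes, the subunits' median was -0.21, against -0.04 over all 19087 genes, but for the features above background it was -0.43, against -0.45 over all 4991 such features. The median of -0.21 became 0.05 with the brightness trend removed, so its sign depends on that step.

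**Figure D3:**
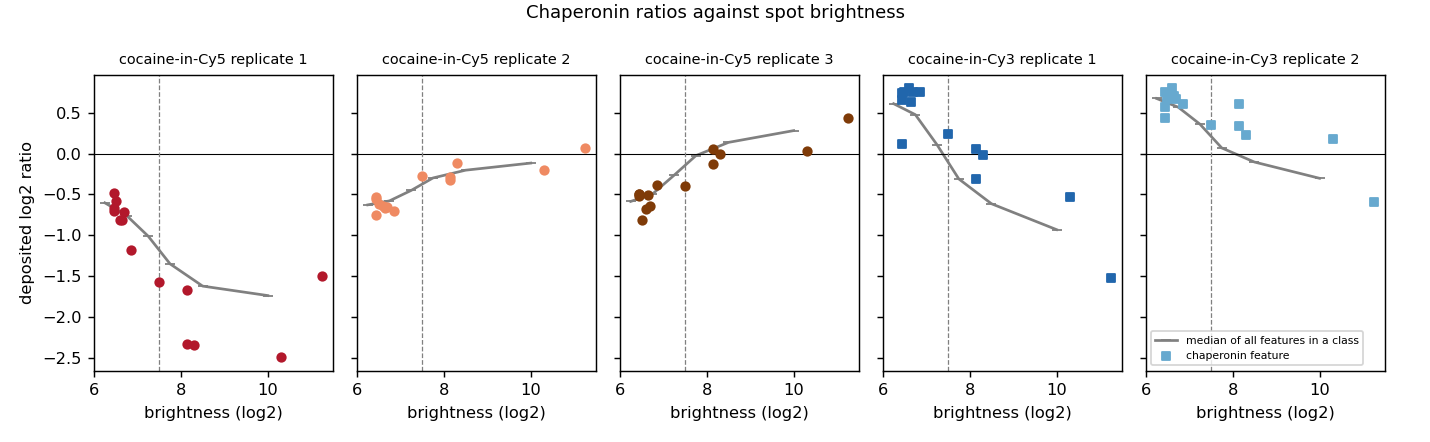
Deposited log2 ratio (vertical axis) against brightness (horizontal axis, log2) on each array, points for the 14 chaperonin features, the grey line for the median of all features in classes of brightness and the dashed line for the threshold of 7.5. The points run with the grey lines, and at a brightness of 8 to 9 they lie below the line on cocaine-in-Cy5 replicate 1 and above it on both cocaine-in-Cy3 arrays.

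A curve of ratio on brightness was therefore removed from each array, fitted over the 4991 gene features above background. None of the 5 chaperonin features passed the adjusted threshold (0.0% of 4991 called), and 1 of 5, Cct8, had an unadjusted p under 0.05, against 6.01% of all. Its trend-removed ratios were -0.12, -0.08 and -0.23 with cocaine in Cy5 and 0.59 and 0.67 with cocaine in Cy3. The mean was 0.24 ± 0.08 (SE, 95% interval 0.06 to 0.43, limma adjusted p = 0.615).

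That value of Cct8 depends on how its brightness was recovered. Earlier settings of the recovery, replaced after recovered signals had been looked at, Cct8 among them, put its brightness at 7.60 in place of 8.15. With those settings its mean was 0.12 ± 0.10 (SE, limma adjusted p = 0.699) and its unadjusted p was no longer under 0.05. The count of chaperonin features under 0.05 fell to 0 of 5, against 248 of 4150 gene features above background with those settings. With the settings used but the curve fitted over all gene features, dim ones included, the mean of Cct8 was 0.22 ± 0.04 (SE, limma adjusted p = 0.71). Its unadjusted limma p was 0.00217 in that fit. There 2 of 14 chaperonin features had an unadjusted p under 0.05, against 2627 of 43790 features in all. With the earlier settings the other means were 0.10 for Tcp1, 0.07 for Cct2, -0.07 for Cct5 and 0.02 for Cct7. Of the gene features above background, 899 were so with the settings used alone, 58 with the earlier ones alone and 4092 with both.

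Cct2 had trend-removed ratios of -0.67, -0.08 and -0.24 with cocaine in Cy5 and 0.43 and 0.49 with cocaine in Cy3, with a mean of 0.07 ± 0.11 (SE, limma adjusted p = 0.828). Tcp1 had -0.73, 0.09 and -0.13 with cocaine in Cy5 and 0.57 and 0.31 with cocaine in Cy3, with a mean of 0.09 ± 0.13 (SE, limma adjusted p = 0.808). Cct7 had -0.78, -0.12 and -0.04 with cocaine in Cy5 and 0.22 and 0.40 with cocaine in Cy3, with a mean of 0.00 ± 0.13 (SE, limma adjusted p = 0.998). In these 3 genes, as in Cct8, the cocaine-in-Cy3 arrays were the high ones and did not overlap with the cocaine-in-Cy5 arrays, as in 20.5% of all gene features above background.

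Cct5 ran the other way, with 0.29, 0.15 and 0.13 with cocaine in Cy5 and -0.44 and -0.21 with cocaine in Cy3. Its mean was -0.07 ± 0.08 (SE, limma adjusted p = 0.774). The dye orientations thus did not overlap in 5 of 5 chaperonin features, against 45.2% of all gene features above background in either direction. With the trend removed and the sign read as here, the 95% intervals of the 5 features together ran from -0.30 to 0.43. That range holds for this fit and this reading alone, and does not bound the treatment difference in general. On the deposited scale the interval of Cct2, for example, was -1.71 to 0.64. A difference within these intervals may have gone undetected with 5 arrays.

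The dye coefficients of the trend-removed ratios, which are the treatment effects under the other reading of the sign, were -0.39 for Cct2, -0.39 for Cct8, -0.35 for Tcp1, -0.31 for Cct7 and 0.26 for Cct5. All 5 had an unadjusted p under 0.05 (0.00169 to 0.0427), against 24.6% of all gene features above background. None passed after adjustment (limma adjusted p of 0.118 to 0.196, 0.0% of 4991 called). The dye and the treatment are told apart here only through the reading of the sign.

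**Figure D4:**
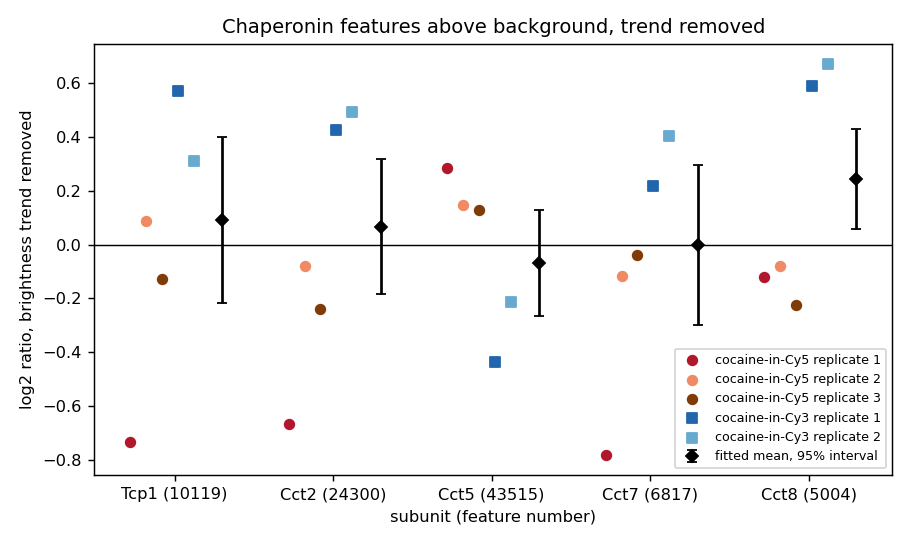
Log2 ratios with the brightness trend removed (vertical axis) for the 5 chaperonin features above background (horizontal axis), circles for cocaine in Cy5, squares for cocaine in Cy3 and black diamonds for the fitted mean with its 95% interval. Squares lie above circles in Tcp1, Cct2, Cct7 and Cct8 and below them in Cct5, where 45.2% of all gene features above background show no overlap in one direction or the other, and the interval of Cct8 alone leaves out 0.

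Leaving out 1 array at a time moved the trend-removed means to 0.01 to 0.21 for Tcp1, 0.00 to 0.15 for Cct2, -0.13 to -0.01 for Cct5, -0.07 to 0.12 for Cct7 and 0.22 to 0.27 for Cct8. Without cocaine-in-Cy5 replicate 1, Tcp1 stood at 0.21 ± 0.08 (SE, limma adjusted p = 0.497), with an unadjusted p under 0.05. Cct8 was under 0.05 there as well, as were 491 of the 4991 gene features above background. With cocaine-in-Cy5 replicate 2 left out instead, 129 of the 4991 were. Without cocaine-in-Cy5 replicate 2, cocaine-in-Cy3 replicate 1 or cocaine-in-Cy3 replicate 2, the unadjusted p of Cct8 was over 0.05. No chaperonin feature passed the adjusted threshold with any array left out.

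On the deposited scale, 0 of 14 chaperonin features were below 0 on all 5 arrays, against 1.81% of all features with 1 gene. Of those above background it was 0 of 5, against 5.91%. The gene features whose deposited ratios were nearest to the mean of the 5 chaperonin features, by the mean absolute difference over 5 arrays, were Rplp0 (0.046), Mrps26 (0.054), Cdc123 (0.054), Kifap3 (0.063) and Mrps6 (0.063). The median distance over 4986 candidates was 0.316, and the chaperonin features themselves lay 0.12 to 0.594 from their mean.

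Proteins that hand clients to the chaperonin came next. Prefoldin, which carries unfolded actin and tubulin to it, had 5 of 6 genes above background, against 22.5% of all genes. The same share of all genes stands beside the counts of each list below. The trend-removed median of the prefoldin genes was 0.14, against 0.07 for the chaperonin and -0.01 over all genes above background. None passed the adjusted threshold. Pfdn6 had the smallest p of them, with -0.14, -0.36 and -0.44 with cocaine in Cy5, 0.70 and 0.89 with cocaine in Cy3 and a mean of 0.24 ± 0.09 (SE, limma adjusted p = 0.615). Pfdn2 and Pfdn5, chosen for their p on the deposited scale, had -0.07 ± 0.10 and 0.14 ± 0.10 (SE).

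Phosducin-like and thioredoxin-like proteins bind the chaperonin and modulate its folding. Of 4 such genes 1, Txndc9, was above background, at 0.03 ± 0.08 (SE). Among 5 relatives of the subunits, Cct6b, a second zeta subunit known mainly from testis, was the 1 above background, at 0.12 ± 0.09 (SE). The mitochondrial chaperonin, a separate machine of Hspd1 and Hspe1, had both genes above background, at -0.07 ± 0.12 and -0.04 ± 0.10 (SE). None of these genes passed the adjusted threshold.

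Among the clients, 5 of 6 actin genes were above background, with a trend-removed median of -0.11 over genes. Features of Actg1 differed in sign, with -0.182 ± 0.196 at feature 35224 and 0.046 ± 0.105 (SE) at feature 36645. Actb, the beta actin of all cells, had -0.65, -0.03 and -0.25 with cocaine in Cy5 and -0.17 and 0.27 with cocaine in Cy3, with a mean of -0.13 ± 0.12 (SE, limma adjusted p = 0.694). Of 14 tubulin genes 9 were above background, with a median of -0.05, and Tubg1, the gamma tubulin of microtubule origins, had -0.16 ± 0.09 (SE). Actin and tubulin genes have near-identical copies, so their probes may share RNA. The 9 of 15 WD-repeat and cell cycle clients above background had a median of -0.04, with the G protein beta subunit Gnb4 at 0.29 ± 0.12 and Wrap53, a telomerase partner, at -0.11 ± 0.09 (SE). None of the clients passed the adjusted threshold.

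Tubulin cofactors take tubulin on from the chaperonin and join its alpha and beta chains. Of these, 5 of 7 were above background, with a median of -0.05, and Tbca and Tbcc had -0.05 ± 0.12 and -0.03 ± 0.09 (SE). The cytosolic Hsp70 and Hsp90 machinery, which works on clients before and beside the chaperonin, had 8 genes above background of 11 measured, with a median of 0.06. The Hsp40 gene Dnajb1, a cochaperone of Hsp70 and a heat shock gene, had -0.36, -0.09 and -0.44 with cocaine in Cy5 and -0.35 and -0.31 with cocaine in Cy3. Its mean was -0.31 ± 0.09 (SE, limma adjusted p = 0.615). Hsp90aa1, the inducible Hsp90, had a mean of -0.23 ± 0.08, and Dnaja2, another Hsp40, had 0.29 ± 0.11 (SE, limma adjusted p = 0.615 for both). In all, 5 of the 8 genes had a mean above 0 and 3 had one below 0. None passed the adjusted threshold. The partner features with the smallest p on the deposited ratios included some not above background, with means of -0.40 ± 0.18 for Pdcl3, -0.30 ± 0.13 for the dimmer feature 19814 of Txndc9, -0.29 ± 0.14 for Mkks, -0.09 ± 0.05 for Cct8l1, -0.12 ± 0.06 for Acta1, -0.09 ± 0.05 for Tubb6 and -0.10 ± 0.06 for Plk1 (SE). Acta2, the smooth muscle actin, was above background and had -0.51 ± 0.31 (SE) on that scale. Hspa4, an Hsp110 relative, had -0.70 ± 0.24 (SE, limma adjusted p = 0.731) on the deposited scale and was not above background.

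**Figure D5:**
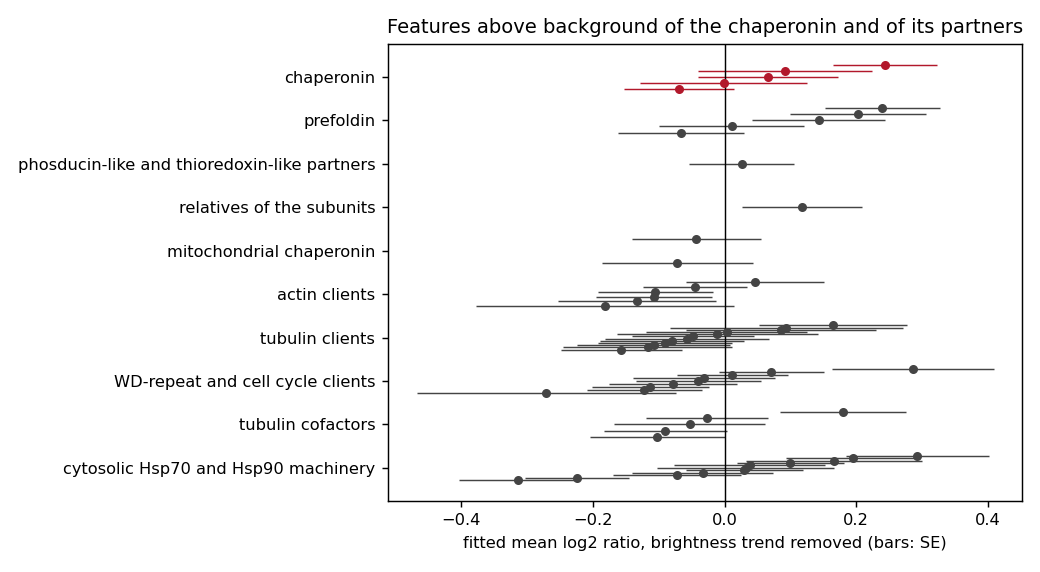
Fitted mean log2 ratios with the brightness trend removed (horizontal axis, bars are SE) of the features above background of the chaperonin (red) and of the lists of its partners (black), 1 row for each list. The chaperonin features run from -0.07 to 0.24 within the range of the other lists, and Dnajb1 is the lowest point of the bottom row at -0.31.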

How the data were processed

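Accumbens RNA was isolated with a PicoPure kit, and 50 ng of total RNA was labelled by linear amplification, per the labels' protocols. The authors deposited a log2 ratio per feature and array. Per the submitters' processing notes the tool was Agilent Feature Extraction. Which version was run, and how signals were normalized, is not stated in the labels or headers. The 500 features at 0 on all arrays were left out, which leaves 43790. Gene names came from the platform annotation, with 31906 of 32042 features matched in RefSeq.

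The treatment was tested with limma 3.58.1 in R 4.3.3 (an intercept for the treatment and a term for dye orientation, with 3 residual degrees of freedom), adjusted by Benjamini-Hochberg over the features fitted at a threshold of 0.05. An exact test that turns the signs of whole arrays cannot go below p = 0.0625. The number of arrays limits the precision. Lists are described by counts and medians.

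Signals were recovered with Python 3.11.15 and NumPy 2.4.6. On the 3 arrays written with 15 digits, 99.97% of the ratios were exact fractions (relative tolerance 2e-14), and the lost common factor was weighed over these arrays (floors of 49 and 66 counts, spread 0.2 between arrays in the denominator channel, which aligns that channel by construction). The same brightness served for the cocaine-in-Cy3 arrays, whose own signals were not recovered. Of 3 versions of the recovery tried, the settings of the one used were chosen after recovered signals, those of chaperonin features among them, had been seen. An earlier version (floor of 35 counts, spread 0.3) was run as an alternative, and the first one was not. The trend was removed by loess (span 0.3). Scripts were tested on simulated data.

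The members and lists were chosen with earlier results of these data known. Named are all subunits, from each partner list the 2 genes with the smallest p on the deposited ratios, and the 5 features nearest to the chaperonin mean. Pfdn6, Txndc9 and Cct6b at their features above background, Actb, Gnb4, Hsp90aa1 and Dnaja2 were added after their values were seen.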

Additional observations from a re-analysis of the deposited data

Results flagged for a closer look

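In 3 of 19 sets of 5 values checked, 1 array lay far from the others, where chance alone gives about 5% of independent sets. All 3 were deposited ratios of cocaine-in-Cy5 replicate 1: -2.345 for Tcp1 (feature 10119), -2.491 for Cct2 (feature 24300) and -2.327 for Cct7 (feature 6817). The sets share the same 5 arrays and take both dye orientations together, so the 5% is not a rate to hold the 3 against. The median of all features with a brightness of 8 to 9 was -1.62 on the same array and -1.74 over a brightness of 9. The part of that shift in the 3 values was not tested.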

How the results depend on the processing

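The count of chaperonin features past the adjusted threshold, and of all features, stayed at 0 under every alternative run except 2. The cocaine-in-Cy5 arrays alone called 33630 features and 8 chaperonin features, and the other reading of the sign called 34346 and 8. Counts at an unadjusted p under 0.05 depended on the processing: 998 of 43790 features as reported, between 240 without cocaine-in-Cy3 replicate 1 and 10263 with quantile normalization, which also moved the median of all features to -0.16, against -0.02 as deposited. The subunits' median of -0.21 was -0.19 with arrays centred, -0.25 with quantile normalization, -0.30 without a dye term, -0.03 with array weights (whose fit stopped before it converged), -0.15 with the 2 cocaine RNAs of like label averaged, -0.29 with the brightest feature of each gene, -0.69 on the cocaine-in-Cy5 arrays alone and -0.51 under the other reading of the sign. With 1 array left out it ran from -0.33 to -0.01, and was -0.01 without cocaine-in-Cy5 replicate 1. Over the 5 features above background it was -0.43 on the deposited scale. It changed sign to 0.05 with the brightness trend removed. With the trend removed over the 5 features above background alone it was 0.07. Other choices added after the data were seen, all with the trend removed, gave 0.03 and 0.07 at brightness thresholds of 7 and 8. With the earlier recovery settings and the trend removed it was 0.07. Of 168 values of single subunits under other settings, 166 moved by less than 1 SD over the arrays, an SD that cocaine-in-Cy5 replicate 1 widens. Each array already sets 1 cocaine-treated against 1 saline-treated mouse, so every fit to the ratios uses that pairing. No further pairing was possible, because replicate numbers in the 2 dye orientations pair nothing. Depth is not known for the cocaine-in-Cy3 arrays.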
